A study of Homo sapiens with 4 samples.

Results

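The 10 transcripts described here are grouped as negative feedback on the ERK pathway, although DUSP10 is directed at JNK and p38 rather than ERK. They are 6 dual-specificity phosphatases (DUSP1, DUSP4, DUSP5, DUSP6, DUSP7 and DUSP10), 2 Sprouty genes (SPRY2 and SPRY4) and 2 SPRED genes (SPRED1 and SPRED2). They were chosen by gene symbol, each symbol occurred in a single row of the authors' table, and they are 10 of the 48162 genes listed. All 10 averaged at least 1 FPKM (read fragments per kilobase of a gene, at a fixed sequencing depth) and are therefore among the 11790 genes tested. They were measured in the established human line MDA-MB-231, grown from a triple-negative breast cancer. A pair of libraries came from cells exposed to 10 µM MGH-CP1 for 24 h, and another pair from cells given vehicle for the same time. The series names MGH-CP1 as an inhibitor of the palmitoylation of TEAD transcription factors, through which YAP and TAZ reach DNA, and the comparison asks which transcripts differ under the compound. Both groups are the same parental line with no genetic change, and nothing in the labels says whether the replicates were separate cultures, so the p-values rest on a spread among libraries that could be purely technical.

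In the ERK pathway, receptor tyrosine kinases switch on RAS, and RAS activates RAF, MEK and ERK kinases in turn. Active ERK enters the nucleus and induces, among other genes, several of its own inhibitors. The dual-specificity phosphatases remove phosphate from the tyrosine and the threonine that activate a MAP kinase. Sprouty and SPRED proteins act further upstream and restrain the activation of RAS or RAF, and SPRED proteins do so in part by bringing the RAS inhibitor neurofibromin to the membrane. Because their transcription depends on ERK activity, the mRNAs of DUSP4, DUSP6, SPRY2 and SPRY4 are widely used as readouts of pathway output in tumour cells.

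Of the 10 genes 6 were higher with MGH-CP1 than with vehicle, 4 did not pass the test and none was lower (limma, adjusted p under 0.05). Over all tested genes, 20.0% were called higher and 25.1% lower, 45.0% in either direction. DUSP4, DUSP5, DUSP6, SPRY4 and SPRED1 rose by 1.64-fold to 2.06-fold in mean FPKM, and SPRY2 rose by 1.29-fold. Being called with a 1.5-fold or larger rise (log2(FPKM + 1) scale) was reached by 5 of the 10 genes and by 5.28% of all tested genes. DUSP1, DUSP7, DUSP10 and SPRED2 had log2 fold changes between -0.06 and 0.12. The median log2 fold change was 0.53 for the 10 genes and -0.02 for all tested genes. These 10 genes were picked with earlier results of the data known, so the counts describe them and are not a test of the group.

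**Figure D1:**
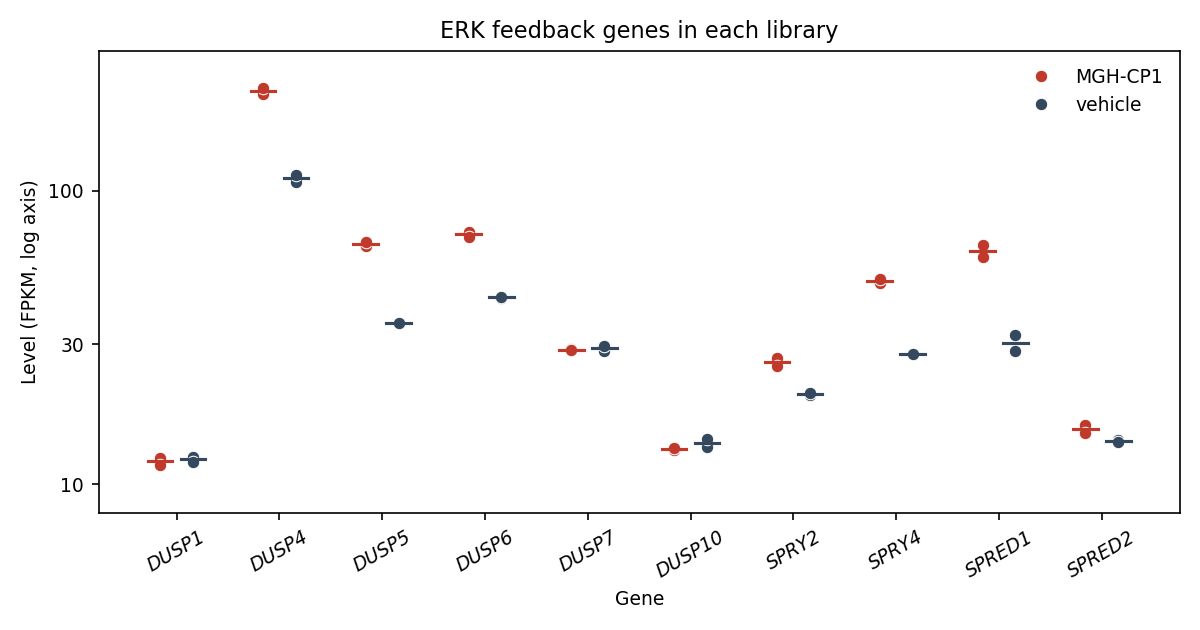
Level of each gene (FPKM, log axis) in each library, with MGH-CP1 left of vehicle; points are libraries and short lines are group means. For DUSP4, DUSP5, DUSP6, SPRY2, SPRY4 and SPRED1 both MGH-CP1 points lie above both vehicle points, as they do for SPRED2, which was not called. DUSP4 stands highest of the 10 genes in both groups.

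Reads assigned to listed genes numbered 16790645 to 18485701 per library, and the 10 genes together took 46055 and 46767 reads in the MGH-CP1 libraries and 27780 and 26342 in the vehicle libraries. The 5 markers fixed for the line (VIM, CD44, CAV1, AXL and MSN) were all expressed. Of 5 luminal markers, PGR was at 0 in every library, ESR1 reached at most 0.00912 FPKM and CDH1 stayed under 1 FPKM. The luminal keratin gene KRT19 was abundant and higher under the compound, at 697 ± 25.2 FPKM with MGH-CP1 and 383 ± 17.2 FPKM with vehicle (SD, n = 2 libraries per group; limma, adjusted p = 0.000111). GATA3 was low and fell to 2.78 ± 0.401 FPKM with MGH-CP1, against 4.59 ± 0.313 FPKM with vehicle (limma, adjusted p = 0.00578), a call lost with no filter (adjusted p = 0.0536). The luminal list summed to 718 and 683 FPKM with MGH-CP1 and 400.3 and 375 FPKM with vehicle, and its part in the values below was not tested. Of 13 measured immune, endothelial and fibroblast markers none exceeded 3.04 FPKM; the 5 immune markers summed to 0.832 and 0.788 FPKM with MGH-CP1 and 0.403 and 0.362 FPKM with vehicle. The share of reads from the mitochondrial genome was 1.81% and 1.54% with MGH-CP1 and 0.676% and 0.645% with vehicle, and its part in the values below was not tested. The TEAD target genes CYR61, at 59.5 ± 4.37 FPKM with MGH-CP1 and 232 ± 5.08 FPKM with vehicle, and CTGF, at 12.1 ± 1.37 FPKM with MGH-CP1 and 33.3 ± 1.37 FPKM with vehicle (SD, n = 2 libraries per group), were lower under the compound.

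Sequence upstream of the gene starts is shown for genes that rose and for DUSP1, which did not, so that the letters can be set beside the levels. The RefSeq promoter table (build GRCh38.p14) held 8 of the 10 genes in 12 windows on the chromosomes read, and DUSP4 and DUSP5 are named only. In the 250 bases before each start, 4 motifs were searched on both strands: GGAATG for TEAD, TGACGTC for the cyclic AMP response element, CCGGAA for ETS factors and TGANTCA for AP-1. Of the 35116 windows of the same length in the table, 11.9% held the TEAD letters, 3.12% the cyclic AMP element, 14.5% the ETS letters and 6.57% the AP-1 letters. The sequences below run 5′ to 3′ on the gene's strand and end at the base before the start; capitals mark motif matches.
DUSP1, chr5:172771196-172771445, minus strand: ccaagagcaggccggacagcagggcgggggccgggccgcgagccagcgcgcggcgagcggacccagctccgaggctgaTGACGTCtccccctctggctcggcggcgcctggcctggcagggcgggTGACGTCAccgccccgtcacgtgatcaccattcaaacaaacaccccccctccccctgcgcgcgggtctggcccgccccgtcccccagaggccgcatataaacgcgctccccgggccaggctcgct
SPRY2, chr13:80341127-80341376, minus strand: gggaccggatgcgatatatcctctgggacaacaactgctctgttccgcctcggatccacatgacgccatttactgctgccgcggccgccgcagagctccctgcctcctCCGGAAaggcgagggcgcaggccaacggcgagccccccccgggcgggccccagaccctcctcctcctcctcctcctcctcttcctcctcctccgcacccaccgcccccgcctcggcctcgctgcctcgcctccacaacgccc
SPRY4, chr5:142324248-142324497, minus strand: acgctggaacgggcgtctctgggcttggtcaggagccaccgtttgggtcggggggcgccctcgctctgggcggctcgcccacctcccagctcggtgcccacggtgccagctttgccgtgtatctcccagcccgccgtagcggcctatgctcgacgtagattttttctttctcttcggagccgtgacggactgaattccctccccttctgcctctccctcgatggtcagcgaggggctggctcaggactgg
DUSP6, chr12:89352502-89352751, minus strand: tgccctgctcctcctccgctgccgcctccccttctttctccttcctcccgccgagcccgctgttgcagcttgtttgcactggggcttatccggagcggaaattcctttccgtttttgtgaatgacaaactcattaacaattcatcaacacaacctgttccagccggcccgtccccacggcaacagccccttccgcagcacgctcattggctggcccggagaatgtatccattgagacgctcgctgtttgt

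DUSP1 was the only one of the 8 genes with the cyclic AMP element in these windows. It had a match from 172 to 166 bases before the start and a pair of overlapping matches, one on each strand, from 125 to 118 bases before it. SPRY2 held the only ETS match, from 142 to 137 bases before the outermost of its 3 listed starts. No window of the 8 genes held the TEAD or AP-1 letters. The windows of SPRY4, DUSP6 and SPRED1, all of which rose, held none of the 4 motifs. Those of DUSP7, DUSP10 and SPRED2, which were not called, held none either. A match is a description of the letters, and a missing match says only that these letters are not in this window.

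DUSP1, DUSP4 and DUSP5 encode nuclear phosphatases of the inducible class. DUSP4 (ENSG00000120875, protein-coding, hg19 chromosome 8, 29190581 to 29208185, minus strand), which acts on ERK and JNK in the nucleus, was read at 213 and 224 FPKM in the MGH-CP1 libraries and 107 and 113 FPKM in the vehicle libraries. The groups were far apart relative to the gap between replicates. Its mean level was 219 ± 7.53 FPKM with MGH-CP1 and 110.2 ± 3.84 FPKM with vehicle, and the log2 fold change was 0.98 ± 0.06 (estimate ± SE; limma, adjusted p = 4.35e-05). With 10494 to 21038 reads per library, DUSP4 was the most deeply read of the 10 genes. DUSP5 (ENSG00000138166, protein-coding, chromosome 10, 112257596 to 112271302, plus strand), a nuclear phosphatase selective for ERK, stood at 64.9 and 66.8 FPKM with MGH-CP1 and at 35.6 FPKM in both vehicle libraries. Its log2 fold change was 0.87 ± 0.05 (limma, adjusted p = 4.8e-05), a 1.85-fold difference of the means.

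DUSP1 (ENSG00000120129, protein-coding, chromosome 5, 172195093 to 172198198, minus strand) did not pass the test. This phosphatase acts on p38 and JNK as well as ERK and is induced quickly by stress and growth factors. Its levels were 12.3 and 11.7 FPKM with MGH-CP1 and 12.4 and 11.9 FPKM with vehicle, so that the groups overlapped. The log2 fold change of -0.02 ± 0.07 did not pass (limma, adjusted p = 0.839), and its 95% interval ran from -0.18 to 0.14. DUSP1 was also the least abundant of the 10 genes, with 400 to 464 reads per library and a counting error of up to 5.0% in a single value. An annotated antisense gene that spans it, RP11-779O18.3, had no read in any library.

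DUSP6 and DUSP7 encode the cytoplasmic phosphatases directed at ERK, close relatives in sequence and in substrate. DUSP6 (ENSG00000139318, protein-coding, chromosome 12, 89741009 to 89747048, minus strand), a standard transcriptional readout of ERK activity, was at 72.4 and 69.8 FPKM in the MGH-CP1 libraries and 43.3 and 43.4 FPKM in the vehicle libraries. DUSP6 thus rose 1.64-fold (log2 fold change 0.70 ± 0.05; limma, adjusted p = 0.000101). DUSP7 (ENSG00000164086, protein-coding, chromosome 3, 52082935 to 52090566, minus strand) was at 28.8 and 28.6 FPKM with MGH-CP1 and at 28.4 and 29.7 FPKM with vehicle. The MGH-CP1 values of DUSP7 lay between the vehicle values, and the difference did not pass (log2 fold change -0.02 ± 0.06; limma, adjusted p = 0.85; 95% interval -0.15 to 0.12). As a result the log2 ratio of DUSP6 to DUSP7 was 1.30 and 1.26 with MGH-CP1 and 0.59 and 0.53 with vehicle. These ratios are given as a description, since an exact permutation test of 2 libraries against 2 cannot give a two-sided p below 0.333.

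DUSP10 (ENSG00000143507, protein-coding, chromosome 1, 221874766 to 221915518, minus strand) differs from the other phosphatases in its substrates, being directed at JNK and p38 rather than at ERK. It stood at 13.0 and 13.4 FPKM with MGH-CP1 and at 13.4 and 14.3 FPKM with vehicle. The MGH-CP1 libraries were the lower ones by a margin smaller than the gap between the vehicle libraries, and the difference did not pass (log2 fold change -0.06 ± 0.07; limma, adjusted p = 0.5; 95% interval -0.22 to 0.10). Among its substrate kinases MAPK8, which encodes a JNK kinase, was lower (4.57 ± 0.478 FPKM with MGH-CP1 and 6.70 ± 0.683 FPKM with vehicle; limma, adjusted p = 0.00983), but not without MGH-CP1 replicate 2 (adjusted p = 0.0648) or with no filter (adjusted p = 0.0686). MAPK14, which encodes p38α, averaged 65.4 ± 0.600 FPKM with MGH-CP1 and 69.2 ± 1.70 FPKM with vehicle, a difference that did not pass (limma, adjusted p = 0.263).

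Both Sprouty genes rose, with the larger estimate for SPRY4. SPRY4 (ENSG00000187678, protein-coding, chromosome 5, 141689992 to 141706020, minus strand), an inhibitor of receptor tyrosine kinase signalling to RAS, was at 48.4 and 50.2 FPKM with MGH-CP1 and at 27.7 and 27.8 FPKM with vehicle. Its log2 fold change was 0.81 ± 0.06 (limma, adjusted p = 6.72e-05). A transcript on the opposite strand, AC005592.2, overlaps the first 1163 bases of SPRY4 and had 30 to 41 reads per library, against 2307 to 4204 reads for SPRY4. SPRY2 (ENSG00000136158, protein-coding, chromosome 13, 80910111 to 80915086, minus strand), which restrains RAS activation and binds the ubiquitin ligase CBL, was at 27.1 and 25.3 FPKM with MGH-CP1 and at 20.1 and 20.5 FPKM with vehicle. The groups were separate, and the smaller rise of 1.29-fold passed the test (log2 fold change 0.35 ± 0.06; limma, adjusted p = 0.00379). The log2 ratio of SPRY2 to SPRY4 was -0.82 and -0.96 with MGH-CP1 and -0.44 and -0.42 with vehicle, a difference of -0.45 between the group means.

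Of the SPRED pair, SPRED1 rose and SPRED2 did not pass. SPRED1 (ENSG00000166068, protein-coding, chromosome 15, 38544527 to 38649450, plus strand), the partner of neurofibromin whose loss causes Legius syndrome, had the largest fold change of the 10 genes. It was read at 59.6 and 65.1 FPKM in the MGH-CP1 libraries and 28.5 and 32.2 FPKM in the vehicle libraries. The lowest MGH-CP1 value was 1.85 times the highest vehicle value, and the log2 fold change was 1.02 ± 0.08 (limma, adjusted p = 9.51e-05). SPRED2 (ENSG00000198369, protein-coding, chromosome 2, 65537985 to 65659771, minus strand), its close relative, was at 15.9 and 14.9 FPKM with MGH-CP1 and at 14.2 and 13.9 FPKM with vehicle. Its libraries did not overlap, but the log2 fold change of 0.12 ± 0.07 did not pass (limma, adjusted p = 0.171; 95% interval -0.03 to 0.28). Over the 10 genes, both MGH-CP1 values lay above both vehicle values for 7 and below them for 1, and over all tested genes for 34.7% and 39.4%. The log2 ratio of SPRED1 to SPRED2 was 1.85 and 2.06 with MGH-CP1 and 0.96 and 1.15 with vehicle. NF1, which encodes neurofibromin, averaged 2.50 ± 0.138 FPKM with MGH-CP1 and 2.48 ± 0.398 FPKM with vehicle, and its log2 difference of 0.01 did not pass (limma, adjusted p = 0.946; 95% interval -0.27 to 0.30).

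**Figure D2:**
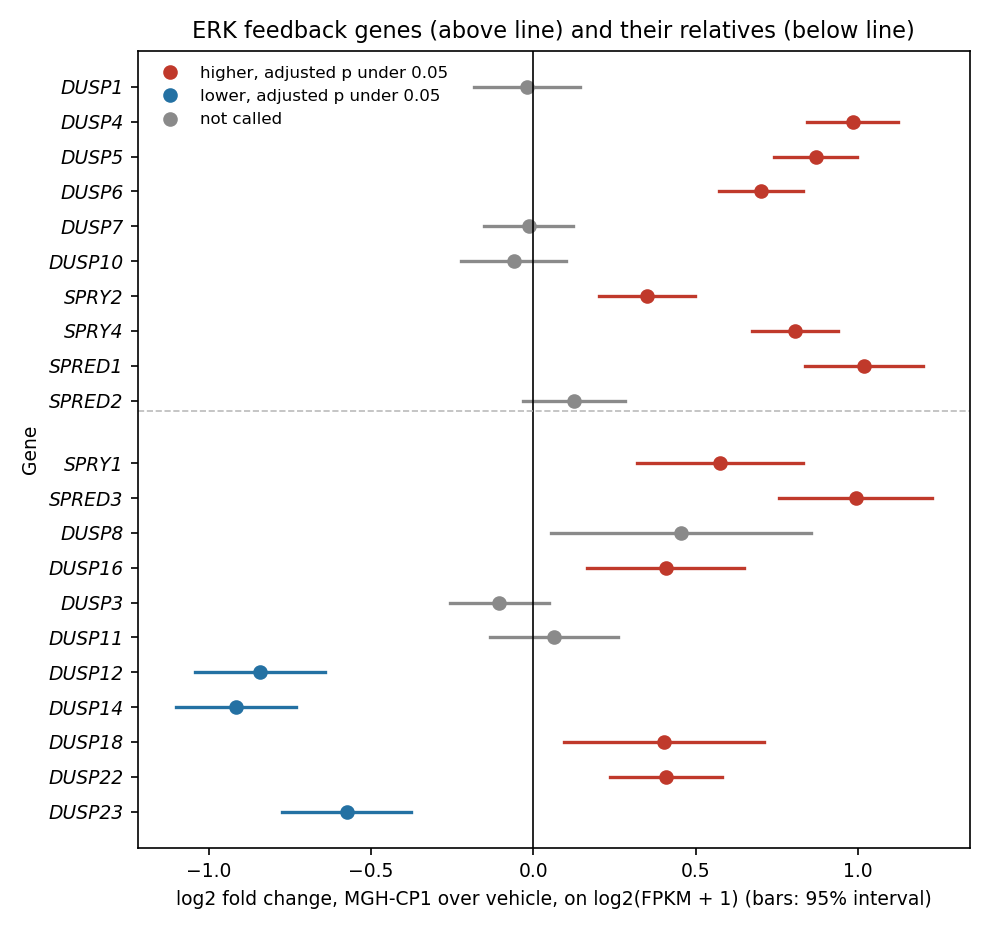
Log2 fold change of MGH-CP1 over vehicle on the log2(FPKM + 1) scale for the 10 feedback genes (above the line) and 11 tested relatives (below it); points are limma estimates and bars 95% intervals, not adjusted for the number of genes. The intervals of DUSP4, DUSP5, DUSP6, SPRY2, SPRY4 and SPRED1 lie right of 0, and those of DUSP1, DUSP7, DUSP10 and SPRED2 cross 0.

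Ranked by log2 fold change among the 11790 tested genes, SPRED1 was at place 112, DUSP4 at 126, DUSP5 at 196, SPRY4 at 260, DUSP6 at 412 and SPRY2 at 1639. DUSP7 and DUSP1, at places 5855 and 5921, lay near the middle. The genes that rose were also more abundant than most: in mean level, 2.23% of tested genes stood above DUSP4, 9.1% above DUSP6 and 10.6% above DUSP5, and 24.9% above SPRY2. DUSP1, DUSP10 and SPRED2 were the lowest of the set, and 36.8% to 42.7% of tested genes stood above them. DUSP7, at about the level of SPRY4 and SPRED1 in vehicle (29.0, 27.8 and 30.3 FPKM), was the one of these 3 that did not pass.

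The summed level of the 6 phosphatase mRNAs was 405 and 414 FPKM in the MGH-CP1 libraries and 240.5 and 248 FPKM in the vehicle libraries, 1.68-fold higher under the compound. DUSP4 was the main component of this sum, with 52.7% and 54.1% of it under MGH-CP1 and 44.7% and 45.6% under vehicle. DUSP6 took a like share, 17.9% and 16.8% with MGH-CP1 and 18.0% and 17.5% with vehicle. The shares of the phosphatases that did not rise were smaller with the compound: DUSP7 made up 7.12% and 6.91% with MGH-CP1 and 11.8% and 12.0% with vehicle. The nuclear inducible phosphatases together were 1.88-fold and the cytoplasmic pair 1.38-fold higher. The 4 Sprouty and SPRED mRNAs summed to 151 and 156 FPKM with MGH-CP1 and 90.5 and 94.4 FPKM with vehicle, a 1.66-fold difference. SPRED1 contributed 39.5% and 41.9% of that sum with MGH-CP1 and 31.5% and 34.1% with vehicle. Such levels are averages over all cells of a culture, relative to the other mRNAs of the library, and more cells expressing a gene cannot be told apart from more RNA per cell.

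**Figure D3:**
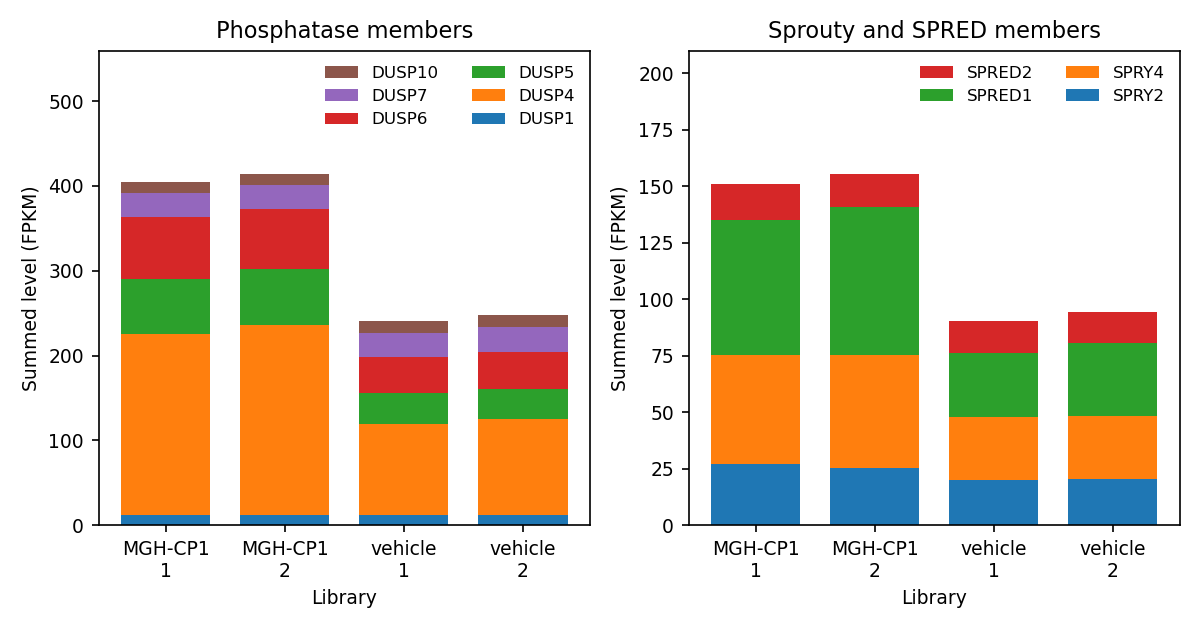
Summed level (FPKM) of the 6 phosphatase mRNAs (left) and of the 4 Sprouty and SPRED mRNAs (right) in each library, split by gene. The phosphatase bars reach 405 and 414 FPKM with MGH-CP1 and 240.5 and 248 FPKM with vehicle, and the DUSP4 segment differs by 109 FPKM between the group means.

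Relatives of these genes that lay outside the set moved in both directions. Of the 11 tested (from 17 listed), 5 were higher and 3 lower, beside 20.0% and 25.1% of all tested genes. SPRED3, the remaining SPRED gene, rose 2.30-fold, to 7.11 ± 0.179 FPKM with MGH-CP1 against 3.09 ± 0.392 FPKM with vehicle (log2 fold change 0.99 ± 0.10; limma, adjusted p = 0.000295). SPRY1 rose to 12.0 ± 1.93 FPKM, against 7.66 ± 0.376 FPKM with vehicle (limma, adjusted p = 0.00482), although not with no filter on low values (adjusted p = 0.0554). DUSP16, a phosphatase for JNK and p38, averaged 9.70 ± 0.491 FPKM with MGH-CP1 and 7.10 ± 1.03 FPKM with vehicle (limma, adjusted p = 0.0158). Its call was lost without MGH-CP1 replicate 1 (adjusted p = 0.0875) and with no filter (adjusted p = 0.0943). DUSP8 averaged 2.05 ± 0.434 FPKM with MGH-CP1 and 1.23 ± 0.408 FPKM with vehicle and missed the threshold (limma, adjusted p = 0.0648), and passed without vehicle replicate 1 (adjusted p = 0.0112) and with voom (adjusted p = 0.0156). DUSP2, an inducible nuclear phosphatase best known from lymphocytes, averaged 0.313 ± 0.200 FPKM with MGH-CP1 and 0.305 ± 0.0682 FPKM with vehicle and was too low to be tested.

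Among the atypical phosphatases, small enzymes that lack the MAP kinase binding domain of the feedback phosphatases, 7 were tested. Of these, 2 rose (DUSP18 and DUSP22) and 3 fell, where 20.0% of all tested genes were called higher and 25.1% lower. DUSP14 averaged 6.73 ± 0.300 FPKM with MGH-CP1 and 13.6 ± 0.851 FPKM with vehicle (log2 fold change -0.92 ± 0.08). DUSP12 averaged 6.62 ± 0.222 FPKM with MGH-CP1 and 12.7 ± 1.15 FPKM with vehicle (log2 fold change -0.84 ± 0.08), and DUSP23 12.9 ± 1.08 FPKM with MGH-CP1 and 19.6 ± 1.48 FPKM with vehicle. The 3 falls were called under all 11 alternatives, whereas a single rise was called in 6 of the 11, among them the fits that left out either MGH-CP1 library or vehicle replicate 2. DUSP12, DUSP14 and DUSP23 thus moved against the called feedback phosphatases.

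Other genes listed as ERK output did not follow a common direction, and their dependence on ERK in this line was not tested. Of 19 tested ERK output genes outside the 10, 6 were higher, 7 lower and 6 not called. The shares of all tested genes called were 20.0% higher and 25.1% lower. The median log2 fold change was 0.06 for the 19 genes and -0.02 for all tested genes. PHLDA1, a pleckstrin homology gene, rose to 88.9 ± 2.02 FPKM with MGH-CP1, against 66.8 ± 2.41 FPKM with vehicle (log2 fold change 0.41 ± 0.06, limma, adjusted p = 0.00126). ETV1, an ETS factor gene, rose to 18.0 ± 0.111 FPKM, against 11.7 ± 0.669 FPKM with vehicle. On the other side FOSL1, an AP-1 subunit stabilised by ERK, fell to 79.7 ± 3.60 FPKM with MGH-CP1, against 209.6 ± 19.6 FPKM with vehicle (log2 fold change -1.38 ± 0.08; limma, adjusted p = 3.41e-05). CCND1, which encodes cyclin D1, fell to 179 ± 1.10 FPKM, against 238 ± 0.495 FPKM with vehicle (limma, adjusted p = 0.00101). HBEGF, an EGF receptor ligand gene, fell to 25.2 ± 3.23 FPKM, against 47.1 ± 1.64 FPKM with vehicle, and the ephrin receptor gene EPHA2 to 91.9 ± 1.58 FPKM, against 139.6 ± 5.49 FPKM with vehicle. ETV5 averaged 16.4 ± 0.687 FPKM with MGH-CP1 and 20.3 ± 0.191 FPKM with vehicle (limma, adjusted p = 0.00854), a call lost without MGH-CP1 replicate 2 (adjusted p = 0.0861). ETV4 averaged 23.1 ± 1.27 FPKM with MGH-CP1 and 24.1 ± 1.93 FPKM with vehicle, which is not a call (limma, adjusted p = 0.577).

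The listed immediate early genes, which include fast targets of ERK, ranged from nearly silent to abundant. FOS averaged 0.678 ± 0.201 FPKM with MGH-CP1 and 0.344 ± 0.0605 FPKM with vehicle, too low to be tested, and EGR1 2.39 ± 0.178 FPKM with MGH-CP1 and 1.92 ± 0.0536 FPKM with vehicle (limma, adjusted p = 0.152). JUN was abundant and was not called, at 75.6 ± 2.26 FPKM with MGH-CP1 and 73.5 ± 1.46 FPKM with vehicle (limma, adjusted p = 0.597). Of the 14 immediate early genes tested, from 20 listed, 6 were higher and 3 lower, beside 20.0% and 25.1% of all tested genes. The 3 lower ones were MYC, KLF10 and IER5. MYC, with the largest fall, averaged 41.5 ± 1.38 FPKM with MGH-CP1 and 56.4 ± 2.80 FPKM with vehicle (limma, adjusted p = 0.00137). With no filter, 5 genes of the list were called higher and 2 lower. KLF2 rose 3.29-fold, to 35.0 ± 1.03 FPKM with MGH-CP1 against 10.6 ± 0.0274 FPKM with vehicle. ZFP36, whose product promotes mRNA decay, rose 2.06-fold to 12.0 ± 1.02 FPKM, against 5.85 ± 0.344 FPKM with vehicle, and JUNB 1.52-fold to 34.1 ± 0.141 FPKM, against 22.5 ± 1.56 FPKM with vehicle. Of the 10 ETS factors 2 were higher and 4 lower, among them ETS1, at 34.5 ± 1.04 FPKM with MGH-CP1 and 62.0 ± 1.20 FPKM with vehicle (log2 fold change -0.83 ± 0.06), and ETS2, at 7.71 ± 0.212 FPKM with MGH-CP1 and 11.8 ± 0.253 FPKM with vehicle.

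**Figure D4:**
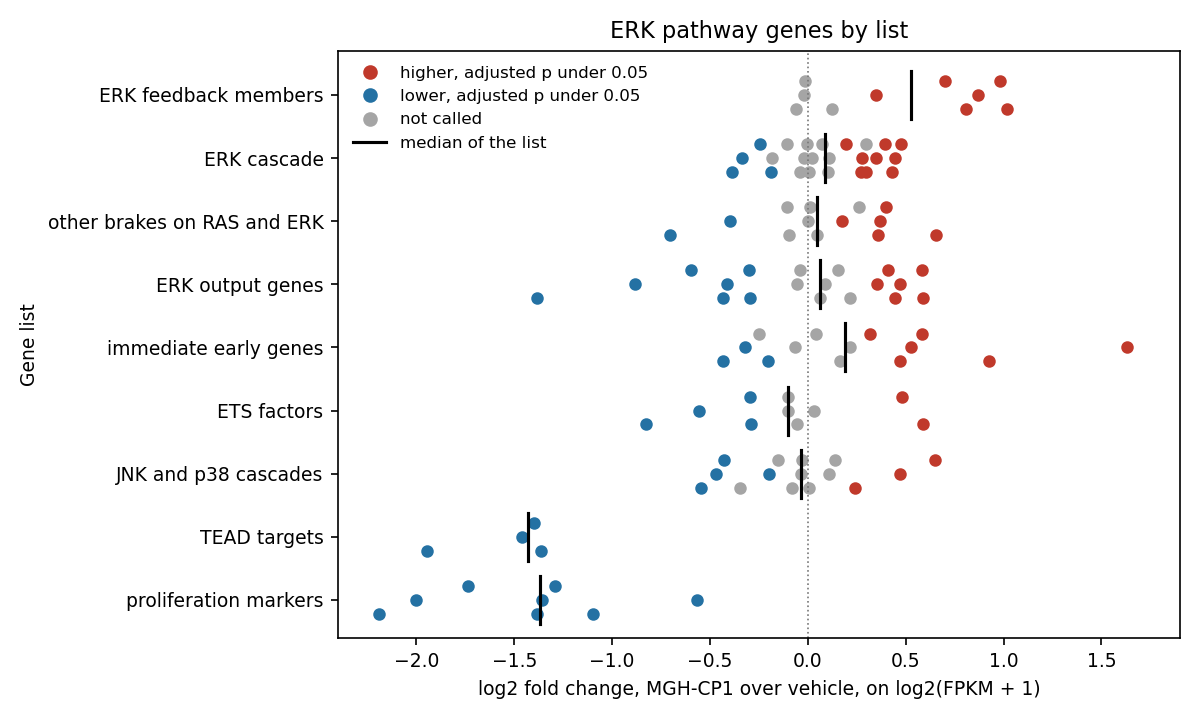
Log2 fold change of MGH-CP1 over vehicle for each tested gene of the ERK pathway lists, the TEAD targets and the proliferation markers; points are genes, coloured by call, and black lines are list medians. The feedback genes have a median of 0.53, the ERK output genes spread to both sides around 0.06, and all TEAD targets and proliferation markers lie left of 0.

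Genes of the cascade itself spanned a narrower range of changes. Of 24 ERK cascade genes 9 were higher and 4 lower, with log2 fold changes from -0.39 to 0.47. Over all tested genes, 20.0% were called higher and 25.1% lower. MAPK3, which encodes the kinase ERK1, averaged 20.9 ± 0.128 FPKM with MGH-CP1 and 15.1 ± 0.0519 FPKM with vehicle (limma, adjusted p = 0.00112). MAP2K1, which encodes the kinase MEK1, averaged 25.0 ± 0.998 FPKM with MGH-CP1 and 31.8 ± 2.12 FPKM with vehicle (limma, adjusted p = 0.00678), a call lost without MGH-CP1 replicate 2 (adjusted p = 0.0592). BRAF averaged 10.9 ± 0.917 FPKM with MGH-CP1 and 10.1 ± 0.846 FPKM with vehicle and was not called (adjusted p by limma 0.359). The cascade counts depended on the libraries: 6 higher and 2 lower genes were called without MGH-CP1 replicate 1, and 4 higher and 1 lower without MGH-CP1 replicate 2. Phosphorylation, by which these kinases are switched on, was not measured.

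Where 20.0% of all tested genes were called higher and 25.1% lower, 5 of 13 other brakes on RAS and ERK were higher and 2 lower. ERRFI1, which encodes a feedback inhibitor of the EGF receptor, was the most abundant of them and rose 1.57-fold, to 466 ± 2.07 FPKM with MGH-CP1 against 296 ± 15.3 FPKM with vehicle (log2 fold change 0.65 ± 0.06; limma, adjusted p = 0.000276). LZTR1, a substrate adaptor for the turnover of RAS proteins, averaged 14.9 ± 0.0462 FPKM with MGH-CP1 and 11.1 ± 0.174 FPKM with vehicle. PEA15, whose product holds ERK in the cytoplasm, fell to 53.0 ± 1.88 FPKM, against 87.0 ± 0.425 FPKM with vehicle (limma, adjusted p = 0.000107). With either MGH-CP1 library left out, 3 of the brakes were called higher and 1 lower, and without vehicle replicate 2 the lower count was also 1. Of 15 tested JNK and p38 cascade genes 3 were higher and 4 lower (2 lower without MGH-CP1 replicate 2 and 6 without vehicle replicate 2).

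The libraries with higher feedback transcripts were also those with lower proliferation markers. All 8 markers tested were lower with MGH-CP1, where 25.1% of all tested genes were called lower. Their summed level was 241 and 248 FPKM with MGH-CP1 and 609 and 634 FPKM with vehicle. All 4 TEAD targets checked were lower as well, with log2 fold changes from -1.95 to -1.37. With 2 groups of libraries these differences coincide with those of the feedback genes, and their part in them cannot be told apart. The 6 rises were called in the same direction under all 11 alternatives, with SPRY2 nearest to the threshold (limma, adjusted p = 0.0456 at most, when MGH-CP1 replicate 1 was left out).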

How the data were processed

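The submitters' processing notes name CASAVA 1.8, STAR and hg19; the sources used here give no read counter, annotation release or use of strand. The authors deposited 1 table of FPKM values with the gene length and coordinates of 48162 genes, and 0 of its per-sample columns were left out. Multiplied by the deposited gene length, 100.0% of the values above 0 in each library were whole multiples of 1 step (within 0.01), and these multiples were taken as reads. The median chi-square per gene between replicates was 1.05 with MGH-CP1 and 1.78 with vehicle, where sampling alone gives 0.455. The spread thus exceeded sampling, which does not show whether the replicates were separate cultures. Each library was counted as 1 replicate.

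MGH-CP1 and vehicle were compared with limma 3.58.1 in R 4.3.3 on log2(FPKM + 1), for genes averaging 1 FPKM or more, with group as the only term, a mean-variance trend and Benjamini-Hochberg adjustment over all 11790 genes; adjusted p-values under 0.05 were called. The fit was tested on simulated data. Fold changes on this scale understate the change of low genes. Values are means ± SD (n = 2 libraries per group) and log2 fold changes ± SE. Alternatives were a pseudocount of 0.1, no filter, a minimum of 5 FPKM, median-of-ratios scaling, no variance trend, voom on the recovered reads, a replicate block and leaving out each library.

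The members and the lists of pathway genes, with 159 of 160 symbols matched, were chosen with earlier results of these data known. All members are named, as are 23 further genes in every case and up to 3 more called genes per list with the largest absolute change; some of them are not reported here. JUN, MYC, KLF10, IER5, DUSP18 and DUSP22 were added after their values were seen. Tables were made with pandas 2.3.3 in Python 3.11.15 (scipy 1.17.1, numpy 2.4.6), and plots with matplotlib 3.10.9.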

Additional observations from a re-analysis of the deposited data

How the results depend on the processing

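No alternative changed the call of any of the 10 feedback genes: the same 6 were called higher and the other 4 were not called in each of the 11. Over all tested genes, 2355 were called higher with all 4 libraries, 1568 with no filter, and 1460 to 2556 when a library was left out (1524 without MGH-CP1 replicate 1 and 1460 without MGH-CP1 replicate 2). The log2 fold change of DUSP1, -0.02, ran from -0.053 to 0.014 when a library was left out, and that of DUSP7, also -0.02, from -0.047 to 0.017, so that both changed sign. A fit without 1 library takes the lone library of its group to vary like the other group. With no filter 4 ERK cascade genes and 3 other brakes were called higher, and 1 brake and 2 JNK and p38 cascade genes lower. Among other genes named, ETV4 ran from -0.135 to 0.0218 and NF1 from -0.105 to 0.129 in the same fits.

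These shifts arose in fits with fewer libraries or with more genes, and their cause was not tested. The labels link same-numbered libraries only by number and do not say whether they were handled together (correlation of their deviations 0.05). With the replicate block 2453 genes were called higher and 3036 lower, with 6 of the 10 feedback genes higher. Median-of-ratios scaling moved the 10 log2 fold changes by at most 0.01. The 95% intervals of the 4 genes that were not called give the differences compatible with these libraries, and small changes in either direction lie inside them.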
